A study of Mus musculus with 12 samples.

Results

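The 47 genes described here run the cell division cycle and the copying of DNA, from the cyclins and kinases that start it to the motors that pull chromosomes apart. They were taken by gene symbol from the deposited count table of 3T3-L1 cells, which lists 54532 genes; all 47 were found, each once, and all 47 passed the filter on low counts. 3T3-L1 is a mouse preadipocyte line of embryonic fibroblast origin that turns into fat-storing cells when treated with a hormone cocktail. RNA was sequenced from 4 groups of 3 libraries each, all wild type and all labelled day 6, in medium with 10% serum. The first group was untreated. The second received DMI, which is dexamethasone at 1 µM, 3-isobutyl-1-methylxanthine (IBMX) at 0.5 mM and insulin at 10 µg/ml, until day 2, and insulin alone for 2 more days. The other two groups received the same cocktail with luteolin or with quercetin, whose doses and times the labels do not give. Both compounds are plant flavonoids, and quercetin carries a hydroxyl group on its central ring that luteolin lacks. The protocol text is the same on every sample, so the untreated state rests on the title and the treatment label.

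D-type cyclins with Cdk4 or Cdk6 phosphorylate the retinoblastoma protein Rb1, which then releases E2F transcription factors, and the E2F factors raise cyclin E and the genes of DNA replication. Cdc6 and Cdt1 load the Mcm2 to Mcm7 helicase onto replication origins, cyclin A and cyclin B with Cdk1 carry the cell into mitosis, and Aurora and Polo kinases, the Bub checkpoint proteins and kinesin motors see it through. Cdkn2c (p18) blocks Cdk4 and Cdk6, and Cdkn1b (p27) blocks cyclin E with Cdk2. In 3T3-L1 cultures that have stopped growing at confluence, the cocktail sets off a short round of division before the cells leave the cycle and mature, and day 6 lies after that round.

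Promoters of cell cycle genes are known for E2F sites at the genes of replication and for CCAAT boxes with a cell cycle homology region (CHR) at mitotic genes. RefSeq promoter windows on GRCm38.p6, from 250 bases before to 50 after a start site, were at hand for 37 of the 47 genes. The windows below belong to genes that fell or rose most with DMI among those at hand, with Cdt1 and Top2a for the falls and Cdkn2c, at 2 start sites, and Ccne1 for the rises. Each is printed 5′ to 3′ on the gene's strand, and capitals mark a match on either strand to CCAAT, to TTTGAA or TTCGAA (CHR), or to TTTCCCGC, TTTGGCGC, TTTCGCGC or TTTGCCGC (E2F). The Cdt1 window is chr8:122567765-122568064 on the plus strand, and the Top2a window is chr11:99024140-99024439 on the minus strand. The Cdkn2c windows are chr4:109666707-109667006 (A) and chr4:109665323-109665622 (B), both on the minus strand, and the Ccne1 window is chr7:38107441-38107740 on the minus strand.
Cdt1: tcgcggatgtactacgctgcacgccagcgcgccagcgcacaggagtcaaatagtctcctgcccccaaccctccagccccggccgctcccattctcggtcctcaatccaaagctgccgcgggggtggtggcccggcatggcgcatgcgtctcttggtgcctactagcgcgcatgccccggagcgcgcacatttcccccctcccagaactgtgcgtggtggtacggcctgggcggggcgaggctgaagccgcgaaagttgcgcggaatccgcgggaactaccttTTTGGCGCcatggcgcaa
Top2a: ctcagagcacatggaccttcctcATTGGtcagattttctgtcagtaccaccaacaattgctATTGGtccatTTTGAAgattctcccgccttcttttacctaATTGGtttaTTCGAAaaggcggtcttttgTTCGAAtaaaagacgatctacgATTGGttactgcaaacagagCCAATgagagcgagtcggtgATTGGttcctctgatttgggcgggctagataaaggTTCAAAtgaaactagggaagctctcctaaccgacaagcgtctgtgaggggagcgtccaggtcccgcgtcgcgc
Cdkn2c A: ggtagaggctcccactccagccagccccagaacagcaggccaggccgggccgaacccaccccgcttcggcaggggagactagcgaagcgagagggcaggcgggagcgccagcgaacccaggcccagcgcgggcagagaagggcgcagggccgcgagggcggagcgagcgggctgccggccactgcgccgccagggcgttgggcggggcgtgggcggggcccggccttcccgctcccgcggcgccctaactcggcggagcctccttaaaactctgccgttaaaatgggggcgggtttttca
Cdkn2c B: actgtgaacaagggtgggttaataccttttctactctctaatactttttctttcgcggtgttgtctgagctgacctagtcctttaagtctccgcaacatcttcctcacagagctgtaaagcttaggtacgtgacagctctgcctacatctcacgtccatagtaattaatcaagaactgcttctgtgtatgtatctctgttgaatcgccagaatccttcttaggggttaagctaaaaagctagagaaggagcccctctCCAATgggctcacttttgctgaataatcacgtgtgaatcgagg
Ccne1: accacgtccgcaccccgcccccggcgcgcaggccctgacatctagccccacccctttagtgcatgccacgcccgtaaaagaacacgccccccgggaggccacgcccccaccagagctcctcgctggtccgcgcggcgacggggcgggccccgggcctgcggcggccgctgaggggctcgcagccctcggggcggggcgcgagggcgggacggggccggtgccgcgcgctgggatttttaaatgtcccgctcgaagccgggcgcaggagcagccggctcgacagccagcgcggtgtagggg
Cdt1 held 1 E2F match, at position 33 after its start site. Top2a held 6 CCAAT matches between positions -227 and -58 and 6 CHR matches, 4 of them from 2 copies of TTCGAA, which reads the same on both strands. Cdkn2c held a single CCAAT match in window B and none of the motifs in window A, and Ccne1 held none. A match is a string of letters and not a shown binding site.

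CCAAT stood in a window of 27 of the 37 genes (73.0%), against 41.1% of all 27025 genes in the RefSeq table and 43.4% of the 10330 of them tested here. CHR letters stood in 15 of 37 (40.5%), against 21.7% of all genes and 16.4% of those tested. E2F letters stood in 10 of 37 (27.0%), against 2.61% of all genes and 4.64% of those tested. Of those 10 genes 6 license origins: Cdc6, Cdt1, Mcm3, Mcm5, Mcm6 and Mcm7. Of the 11 genes with a window that fell with DMI, 8 held CCAAT, 4 held CHR and 3 held E2F letters. Of the 22 with a window that passed no test with DMI, 17 held CCAAT, 11 held CHR and 7 held E2F letters. The 4 that rose and had a window (Cdkn2c, Ccne1, Rrm2 and Cdk6) held CCAAT in 2 cases, and CHR or E2F letters in 0.

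Library totals ran from 14522182 to 19436796 counts, and the lowest count of any of the 47 genes in any library was 16. The summed level of 6 adipocyte markers was 42.1 to 53.5 CPM (counts scaled to the library's size) in the untreated libraries, 2515 to 10951 with DMI, 2054 to 5722 with luteolin and 612 to 2902 with quercetin. In each induced group replicate 3 was the lowest in these markers, and Fabp4, the fatty acid carrier of fat cells, stood at 2958, 3896 and 840.3 CPM in the DMI libraries. Of the DMI libraries, replicate 3 lay nearest the untreated mean for 31 of the 47 genes (66.0%), as it did for 65.8% of all genes tested, and quercetin replicate 3 was the highest of its group for 30 of the 47 (63.8%) against 40.8% of all genes. The summed level of 5 preadipocyte and fibroblast markers was 23741 to 24524 CPM untreated, 8927 to 14663 with DMI, 6991 to 10532 with luteolin and 9634 to 12594 with quercetin. Col1a1 and Dlk1 made up most of this sum. Dlk1, Pdgfrb, Thy1 and Col1a1 were lower in every induced library than in the untreated ones. Pdgfra was not, at 589, 604 and 577 CPM untreated and 628, 589 and 689 with DMI. It read 612, 612 and 678 CPM with luteolin and 773, 728 and 821 with quercetin. Macrophage, endothelial, epithelial and muscle markers summed to at most 3.06, 0.559, 0.554 and 0.202 CPM in any library, with Adgre1, Myod1 and Myog at 0 in all 12. Results that rest on the third libraries are given with and without them, and the part of these libraries and of the adipocyte markers in any result was not tested. Whether the replicates were separate cultures is not stated, and p-values measure only the spread between these samples, which may be technical. Of the 47 genes, 11 overlap a gene on the opposite strand that held more than 10% of their own counts, and these are marked where they are described. The percentage given there is all counts of the overlapping gene over those of the gene described. Reads shared between the genes were not measured.

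**Figure D1:**
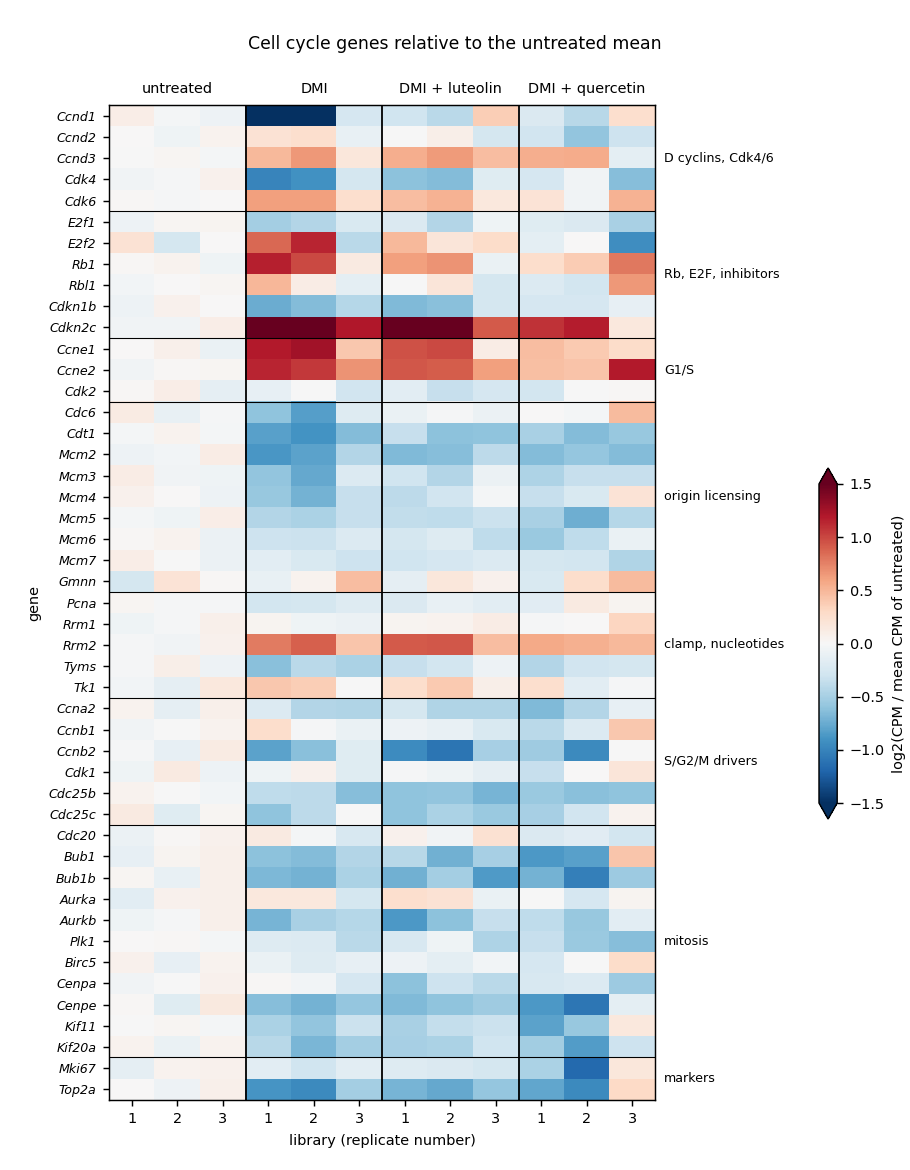
Heatmap of the 47 genes (rows, by role) in the 12 libraries (columns): colour is log2 of a library's CPM over the mean CPM of the 3 untreated libraries, cut at 1.5 either way. Cdkn2c, Ccne1 and Ccne2 are red in the DMI libraries, the Mcm genes and Cdt1 are blue, and replicate 3 of the DMI group is paler than replicates 1 and 2 for many genes.

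Per length, in the FPKM deposited by the authors, Cdk4 was the most abundant of the 47 genes in untreated cells at 116 ± 4.56 FPKM (SD, n = 3). Ccnd2, a D-type cyclin, followed at 78.5 ± 3.34, and then came Cdkn1b at 34.2 ± 1.48, Pcna at 31.8 ± 0.628, Ccnd1 at 30.9 ± 2.03 and Cdkn2c at 27.8 ± 1.68. The SD range of Ccnd1 overlapped those of its neighbours Pcna and Cdkn2c, and the ranges of Cdkn1b and Pcna did not overlap. With DMI the order changed at the top: Cdkn2c led at 124 ± 51.5 FPKM, ahead of Ccnd2 at 88.4 ± 11.5 and Cdk4 at 74.9 ± 22.3, with spreads that overlapped. E2f2 was the lowest of the 47 in every group, at 0.372 ± 0.0632 FPKM untreated. The kinase Cdk4 and the cyclin Ccnd2 thus stood above Top2a at 14.9 ± 0.792 FPKM and Cdc20, the activator of the anaphase-promoting complex, at 14.8 ± 0.783 FPKM, the highest of the markers and of the mitotic genes in untreated cells.

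The first comparison asks how the cycle genes stood at day 6 in cells that had received DMI against untreated cells. DMI lowered 15 of the 47 genes and raised 6 at an adjusted p under 0.05, from edgeR's quasi-likelihood test with Benjamini-Hochberg adjustment over all genes. The falls took in origin licensing factors (Cdt1, Mcm2, Mcm3, Mcm4 and Mcm5), the Cdk4 kinase with its partner Ccnd1, and mitotic genes (Bub1b, Aurkb, Cenpe, Kif20a and Top2a). The rises took in both E cyclins, the inhibitor Cdkn2c, Rb1, Cdk6 and Rrm2. Of all 14855 genes tested, 12.4% fell and 14.7% rose. The median log2 fold change was -0.27 over the 47 genes and -0.04 over all genes, and all 3 DMI libraries lay below all 3 untreated ones for 26 of the 47 (55.3%) and for 29.4% of all genes. They lay above for 7 (14.9%) and for 22.7% of all genes. From bulk RNA, fewer dividing cells and less of each transcript per cell cannot be told apart.

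**Figure D2:**
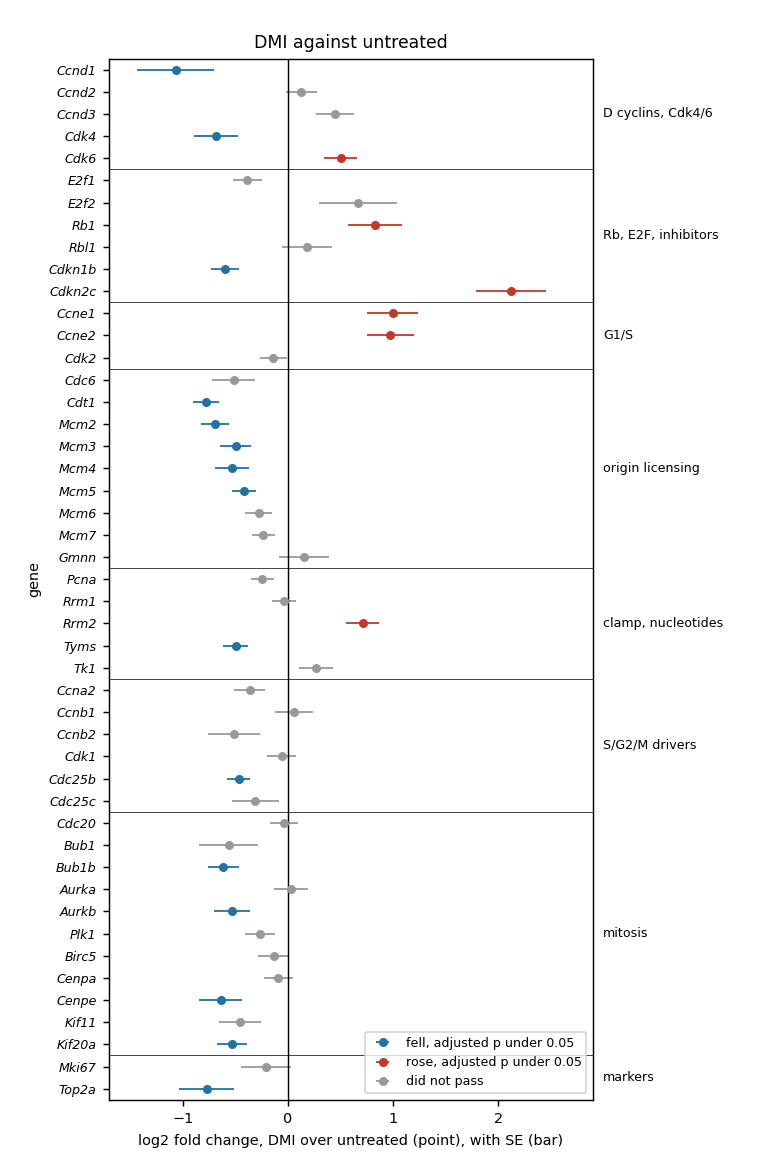
Log2 fold change of each of the 47 genes (rows, by role) in DMI over untreated, as points with the standard error as bars; blue fell, red rose and grey did not pass the adjusted p of 0.05. Cdkn2c stands alone at 2.12, and all origin licensing genes but Gmnn lie below 0.

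Among the D-type cyclins and their kinases, Cdk4 read 376, 385 and 407 CPM in the untreated libraries, 196, 207 and 324 with DMI, 253, 248 and 342 with luteolin, and 325, 375 and 249 with quercetin. The DMI libraries all lay below the untreated ones, with replicate 3 nearest to them, and Cdk4 fell (log2 fold change -0.68, standard error (SE) 0.21, adjusted p 0.0307). Ccnd1, a cyclin that rises with growth signals, read 160.1, 146 and 142 CPM untreated, 48.3, 39.9 and 126 with DMI, 122, 113 and 193 with luteolin, and 129, 112 and 178 with quercetin. DMI replicate 3 came close to the untreated libraries, which did not overlap with the DMI group. Ccnd1 fell (log2 fold change -1.07, SE 0.36, adjusted p 0.0457), a value that became -1.76 (SE 0.25) without DMI replicate 3 and was called in 2 of the 12 fits that left out 1 library. Cdk6 stood at 66.1 ± 0.797 CPM untreated and 93.5 ± 12.8 with DMI and rose (0.50, SE 0.16, adjusted p 0.0357), in the opposite direction to its sister kinase Cdk4. Of the 12 fits that left out 1 library, 6 called Cdk6 and 7 called Cdk4. Ccnd2 (0.13, adjusted p 0.559) and Ccnd3 (0.45, adjusted p 0.0812) did not pass. On the opposite strand, Tspan31 overlaps Cdk4 with 25.1% of its counts, Oraov1 overlaps Ccnd1 with 14.2%, and Bysl overlaps Ccnd3 with 23.6%.

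Cdkn2c, at chr4:109660876-109667189 on GRCm38, showed the largest difference of the 47 between DMI and untreated cells. The gene read 73.9, 74.1 and 82.2 CPM untreated, 384, 440.4 and 176 with DMI, 217, 233 and 145 with luteolin, and 163, 174 and 85.8 with quercetin. Every induced library lay above every untreated one, the lowest being quercetin replicate 3. DMI raised Cdkn2c 4.35-fold (log2 fold change 2.12, SE 0.33, adjusted p 0.0011). Cdkn1b, the other inhibitor, moved the opposite way: it read 153, 167 and 161 CPM untreated, 96.0, 102 and 119 with DMI, 101, 104 and 133 with luteolin, and 134, 135 and 147 with quercetin. The untreated libraries were the highest 3 of the 12, and Cdkn1b fell with DMI (log2 fold change -0.60, SE 0.13, adjusted p 0.00638). Rb1 read 22.1, 22.7 and 20.9 CPM untreated, 49.1, 43.5 and 24.1 with DMI, 33.6, 35.0 and 20.5 with luteolin, and 26.2, 28.6 and 37.9 with quercetin. DMI replicate 3 lay just above the untreated libraries and the luteolin group overlapped them. Rb1 rose with DMI (0.83, SE 0.26, adjusted p 0.0332), while its relative Rbl1 (0.18, adjusted p 0.619), E2f1 (-0.39, adjusted p 0.0506) and E2f2 (0.67, adjusted p 0.203) did not pass. Rb1 overlaps Rcbtb2 and Lpar6 on the opposite strand, whose counts came to 203% and 35.6% of its own, and the kit does not mark strand.

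Both E cyclins, which drive the start of S phase with Cdk2, rose with DMI. Ccne1 read 19.1, 20.1 and 17.8 CPM untreated, 43.3, 45.5 and 25.2 with DMI, 37.0, 37.8 and 20.5 with luteolin, and 26.3, 25.1 and 23.1 with quercetin. The lowest induced library, luteolin replicate 3, was still above the highest untreated one, and the log2 fold change with DMI was 1.00 (SE 0.24, adjusted p 0.0108). Ccne2 read 5.78, 6.08 and 6.10 CPM untreated, 13.3, 12.5 and 9.54 with DMI, 11.5, 11.2 and 9.18 with luteolin, and 8.19, 8.09 and 13.7 with quercetin. No induced library overlapped the untreated ones, and Ccne2 rose by 0.98 on the log2 scale (SE 0.22, adjusted p 0.00765). Ints8 overlaps Ccne2 on the opposite strand with 488% of its counts. Cdk2 itself stood at 37.9 ± 3.10 CPM untreated and 34.5 ± 3.33 with DMI and did not pass (adjusted p 0.462).

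**Figure D3:**
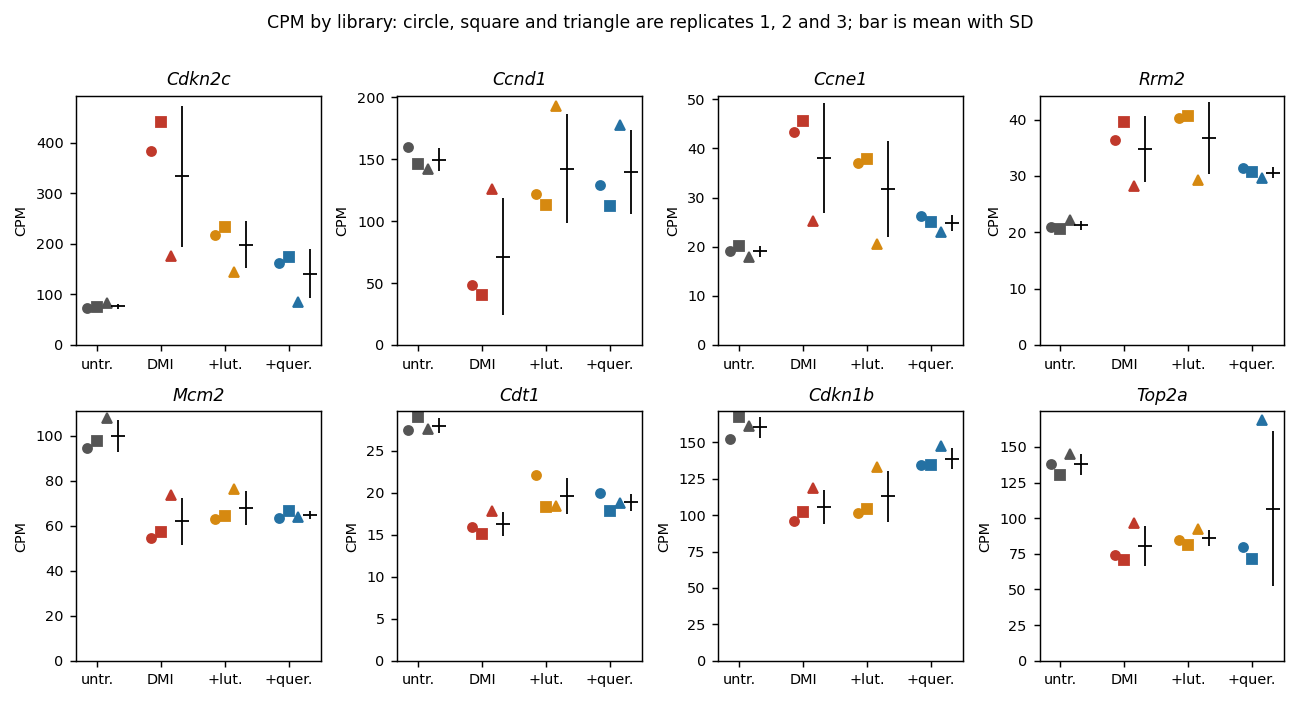
CPM of 8 genes by library, with 3 libraries a group as symbols and the mean with SD as a bar; every axis starts at 0. Cdkn2c, Ccne1 and Rrm2 are higher in every induced library than in the untreated ones, Mcm2, Cdt1 and Cdkn1b are lower, and for Top2a quercetin replicate 3 stands at 169 CPM above the untreated libraries.

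Origin licensing was the role with the most falls by count: 5 of its 9 genes passed, all downward, beside 12.4% of all genes. The DMI libraries lay wholly below the untreated ones for 8 of the 9, beside 29.4% of all genes. The role's median log2 fold change was -0.50. Cdt1, which brings the Mcm helicase to origins, read 27.5, 29.0 and 27.6 CPM untreated, 15.98, 15.1 and 17.9 with DMI, 22.1, 18.3 and 18.4 with luteolin, and 19.9, 17.8 and 18.8 with quercetin. All 9 induced libraries lay below the untreated ones, and Cdt1 fell 1.72-fold with DMI (log2 fold change -0.78, SE 0.13, adjusted p 0.0013). Mcm2, a helicase subunit, read 94.7, 97.5 and 108 CPM untreated, 54.7, 57.3 and 73.9 with DMI, 63.1, 64.3 and 76.4 with luteolin, and 63.7, 66.7 and 64.0 with quercetin. No induced library reached the untreated range, and the log2 fold change with DMI was -0.69 (SE 0.13, adjusted p 0.00331). Mcm4, the most abundant licensing gene per length in untreated cells, read 71.6, 69.1 and 65.1 CPM untreated, 46.2, 41.9 and 54.2 with DMI, 52.2, 56.4 and 67.3 with luteolin, and 54.1, 58.5 and 79.0 with quercetin. Only the DMI group lay wholly below the untreated libraries, and Mcm4 fell with DMI (-0.53, SE 0.16, adjusted p 0.0278). Mcm5 (-0.42, adjusted p 0.0181) and Mcm3 (-0.50, adjusted p 0.0286) also fell. Cdc6 (-0.52, adjusted p 0.0805), Mcm6 (-0.28, adjusted p 0.127), Mcm7 (-0.23, adjusted p 0.122) and the Cdt1 inhibitor Gmnn (0.16, adjusted p 0.669) did not pass. Cops6 and Ap4m1 overlap Mcm7 on the opposite strand with 154% and 41.8% of its counts.

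The genes of the clamp and of nucleotide supply split. Rrm2, the small subunit of ribonucleotide reductase, read 21.0, 20.5 and 22.1 CPM untreated, 36.4, 39.5 and 28.2 with DMI, 40.2, 40.6 and 29.3 with luteolin, and 31.5, 30.7 and 29.6 with quercetin. All 9 induced libraries lay above the untreated ones, and Rrm2 rose with DMI by 0.71 on the log2 scale (SE 0.16, adjusted p 0.00638), while the large subunit Rrm1 stood at -0.04 (adjusted p 0.85). Tyms, which makes thymidylate, fell from 30.5 ± 1.66 CPM to 21.6 ± 1.67 (-0.50, adjusted p 0.0108), and the salvage kinase Tk1, which Afmid overlaps on the opposite strand with 14.98% of its counts, did not pass (0.27, adjusted p 0.234). The sliding clamp Pcna read 79.9, 77.7 and 77.6 CPM untreated, 64.8, 65.2 and 68.8 with DMI, 67.7, 72.8 and 70.4 with luteolin, and 69.5, 86.3 and 80.8 with quercetin. The DMI and luteolin groups lay below the untreated libraries and the quercetin group overlapped them, but the difference with DMI did not pass (-0.24, adjusted p 0.112). A processed copy, Pcna-ps2, holds 4992 counts over the 12 libraries, so the split of reads between the copies is uncertain.

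Where 12.4% of all genes fell with DMI and 14.7% rose, of the 6 drivers of S phase, G2 and mitosis only Cdc25b passed. This phosphatase, which switches on cyclin-dependent kinases, read 47.2, 45.3 and 44.2 CPM untreated, 35.0, 34.7 and 29.3 with DMI, 29.9, 30.2 and 28.2 with luteolin, and 31.0, 29.6 and 29.9 with quercetin. All induced libraries lay below the untreated ones, and Cdc25b fell with DMI (log2 fold change -0.47, SE 0.11, adjusted p 0.00889). Spef1 overlaps Cdc25b on the opposite strand with 27.2% of its counts. Cdk1 itself stood at 39.6 ± 3.33 CPM untreated and 38.0 ± 3.17 with DMI (adjusted p 0.791), and its cyclins Ccnb1 (0.06, adjusted p 0.846), Ccnb2 (-0.51, adjusted p 0.139) and Ccna2 (-0.36, adjusted p 0.0891) did not pass, nor did Cdc25c (-0.31, adjusted p 0.331). Exosc9 overlaps Ccna2 on the opposite strand with 42.9% of its counts. The 95% interval for Cdk1 ran from -0.37 to 0.25 on the log2 scale.

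Among the 11 genes of mitosis, 4 fell with DMI and 0 rose, beside 12.4% and 14.7% of all genes. Bub1b, a spindle checkpoint kinase, read 38.9, 35.2 and 40.4 CPM untreated, 23.9, 23.4 and 27.5 with DMI, 23.1, 26.7 and 21.1 with luteolin, and 23.2, 18.7 and 26.1 with quercetin. All 9 induced libraries lay below the untreated ones, and the log2 fold change with DMI was -0.61 (SE 0.15, adjusted p 0.01). Cenpe, a kinetochore motor, read 30.5, 26.4 and 33.2 CPM untreated, 19.3, 18.3 and 20.1 with DMI, 19.0, 19.7 and 20.7 with luteolin, and 16.6, 14.2 and 27.2 with quercetin. Quercetin replicate 3 reached the untreated range and the DMI libraries did not (-0.64, SE 0.20, adjusted p 0.0338). Aurkb, the kinase of the chromosomal passenger complex, read 14.5, 14.9 and 15.9 CPM untreated, 9.31, 10.8 and 11.3 with DMI, 8.32, 9.85 and 11.9 with luteolin, and 11.6, 10.2 and 13.5 with quercetin. No induced library overlapped the untreated ones (DMI -0.53, SE 0.17, adjusted p 0.0347). Kif20a, a cytokinesis motor, is overlapped on the opposite strand by the gene Cdc23, whose counts came to 202% of its own. Kif20a read 36.7, 33.05 and 36.7 CPM untreated, 26.6, 22.1 and 24.9 with DMI, 25.1, 25.6 and 28.9 with luteolin, and 24.7, 19.8 and 28.5 with quercetin. All induced libraries were lower than the untreated ones (DMI -0.53, SE 0.15, adjusted p 0.0186).

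The remaining mitotic genes did not pass with DMI. Cdc20 read 26.7, 28.8 and 29.7 CPM untreated, 31.3, 27.8 and 23.9 with DMI, 29.6, 27.4 and 33.4 with luteolin, and 24.5, 25.2 and 23.4 with quercetin, and the DMI group overlapped the untreated one (-0.04, adjusted p 0.859). Elovl1 overlaps Cdc20 on the opposite strand with 281% of its counts. Aurka (0.03, adjusted p 0.904), Cenpa (-0.09, adjusted p 0.664) and Birc5 (-0.14, adjusted p 0.536) overlapped between the groups, and Plk1 (-0.27, adjusted p 0.173), Kif11 (-0.46, adjusted p 0.114) and Bub1 (-0.56, adjusted p 0.152) were lower in all 3 DMI libraries.

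Both markers of dividing cells lay lower in every DMI library than in the untreated ones, as did 29.4% of all genes. Of these markers 1 passed, downward, beside 12.4% of all genes. Top2a, the topoisomerase that untangles replicated chromosomes, read 138, 130.4 and 145 CPM untreated, 74.5, 71.0 and 96.8 with DMI, 84.6, 81.1 and 92.4 with luteolin, and 80.0, 71.3 and 169 with quercetin. Quercetin replicate 3 was the highest library of all 12, while no DMI library reached the untreated range. Top2a fell with DMI (log2 fold change -0.77, SE 0.26, adjusted p 0.0453), a call made in 4 of the 12 fits that left out 1 library. Mki67, the Ki-67 antigen, read 68.1, 77.9 and 78.5 CPM untreated, 66.9, 60.8 and 66.9 with DMI, 65.2, 64.5 and 62.6 with luteolin, and 54.0, 33.4 and 84.1 with quercetin. Its DMI libraries were all below the untreated ones by a small margin, and the difference did not pass (-0.21, SE 0.24, adjusted p 0.559). The SD of Mki67 was 25.5 CPM in the quercetin group and 3.50 with DMI.

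In the quercetin group, long genes were low in one library and high in another. The longest 10% of genes tested (9244 bases or more, 1486 genes) lay at a median of -0.21 on the log2 scale from their group mean in quercetin replicate 2 and 0.27 in replicate 3, and the shortest 10% lay at 0.16 and -0.17. Mki67 (10061 bases) lay at -0.67 and 0.65 in the same libraries, and Top2a (9013 bases) at -0.47 and 0.77. Shorter genes did so too, with Ccnb2 (1531 bases) at -0.45 and 0.49 and Bub1 (4354 bases) at -0.39 and 0.83, and the long gene Ccnd3 (8775 bases) lay the other way at 0.24 and -0.46. In the DMI and luteolin libraries the median of the longest genes stayed between -0.06 and 0.03. The part of length in the values of Mki67 and Top2a was not tested.

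**Figure D4:**
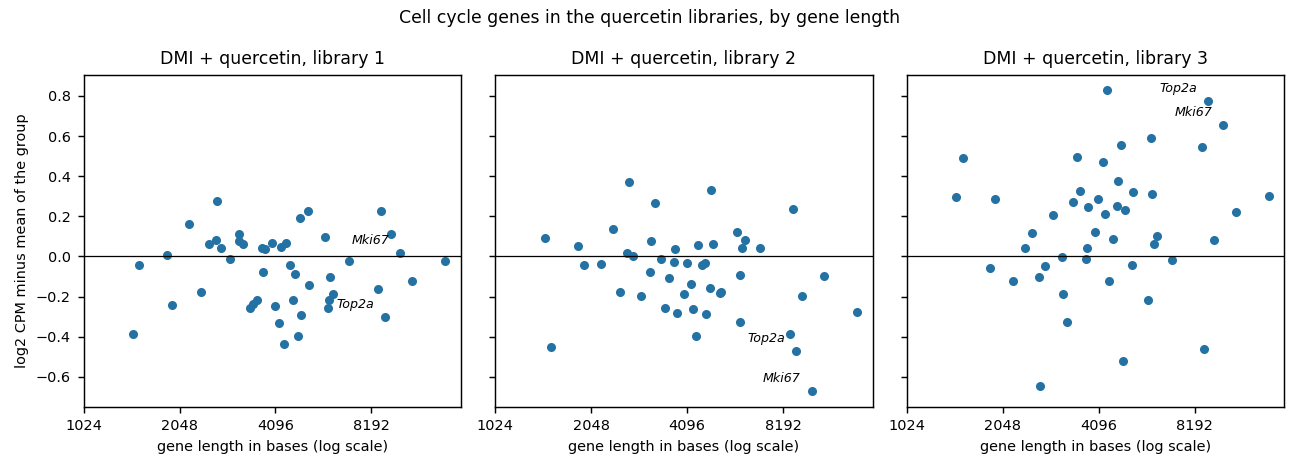
Deviation of each of the 47 genes from the mean log2 CPM of the 3 quercetin libraries (vertical axis) by gene length in bases (horizontal axis, log scale), 1 panel per library. Mki67 and Top2a are among the lowest points in replicate 2 and among the highest in replicate 3.

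How many of the 21 calls hold depended on the libraries. Leaving out 1 library at a time gave 8 to 26 called genes: 10, 12 and 9 without untreated replicate 1, 2 or 3, 8 without DMI replicate 1 or 2, and 26 without DMI replicate 3. The share of all genes called moved with them, from 12.3% without DMI replicate 2 to 36.4% without DMI replicate 3. Leaving out quercetin replicate 3, which lies outside this comparison, gave 25 called genes and 36.6% of all genes. When replicate 3 was left out of all 3 induced groups, a choice made after seeing the data, 33 of the 47 were called against 52.8% of all genes. Cdkn2c, Ccne2, Rrm2, Cdt1, Mcm2 and Cdkn1b passed in the same direction in all 20 alternative fits, and Cdc25b in 19. Of the 12 fits that left out 1 library, Aurkb passed in 6, and Rb1, Mcm3 and Mcm4 in 7 each. In the authors' deposited table, 7 of the 47 genes were higher and 17 lower with DMI at an adjusted p under 0.05, beside 12.4% and 9.04% of its genes, and 20 of the 21 genes were among them, Mcm3 being the exception.

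The next 2 comparisons ask what luteolin and quercetin changed in cells that received DMI. In edgeR, 0 of the 47 genes passed the adjusted p of 0.05 with either compound. With luteolin 0.0202% of all genes passed, and with quercetin 1.01%. At an unadjusted p under 0.05 there were 5 of the 47 with luteolin and 9 with quercetin, beside 6.09% and 21.3% of all genes. With the replicate number as a block, which pairs the luteolin and DMI libraries, 25 genes of all tested passed with luteolin in place of 3, and still 0 of the 47. Whether the quercetin and DMI libraries are paired is uncertain: deviations of same-numbered libraries from their group means correlated at 0.07, 0.28 and 0.33. There the block gave 5 of the 47 (Ccnd1, Ccnd2, Cdc6, Cdkn1b and Cdkn2c), beside 9.39% of all genes. DESeq2 called 0 with luteolin, beside 0.323% of all genes, and 2 with quercetin, Ccnd2 and Cdkn2c, both lower, beside 6.62%. The median log2 fold change of the 47 was 0.02 with luteolin and -0.01 with quercetin, beside -0.02 and 0.02 over all genes.

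The 2 comparisons share the DMI libraries, so their values stand side by side without a test of likeness. With luteolin 6.38% of the 47 lay wholly above the DMI libraries and 2.13% wholly below, beside 6.23% and 5.24% of all genes. With quercetin it was 6.38% and 4.26%, beside 6.68% and 7.35%. Besides genes named below, Cdt1 and Tyms lay wholly above DMI with luteolin, and Pcna with quercetin. Cdkn2c stood at -0.75 (SE 0.32, adjusted p 0.81) with luteolin and at -1.24 (SE 0.33, adjusted p 0.0779) with quercetin. All 3 quercetin libraries of Cdkn2c lay below all 3 DMI libraries, and the luteolin group overlapped the DMI group through DMI replicate 3. Ccnd1 stood at 1.00 (SE 0.36, adjusted p 0.718) and 0.97 (SE 0.36, adjusted p 0.157), with DMI replicate 3 inside the range of both compound groups. Cdc6, which read 4.78, 4.11 and 6.34 CPM with DMI, 6.81, 7.20 and 6.85 with luteolin and 7.31, 7.13 and 10.1 with quercetin, was above the DMI libraries in both groups without passing (0.45, adjusted p 0.812, and 0.68, adjusted p 0.103). Ccnd2 read 882, 906 and 701 CPM with DMI and 622, 502 and 609.8 with quercetin, below it in every library (-0.52, adjusted p 0.0941). Cdkn1b was above DMI in every quercetin library (0.39, adjusted p 0.129). Cenpa, the centromere histone, was lower in every luteolin library than in the DMI ones at 15.7, 19.3 and 18.0 CPM against 24.1, 23.2 and 20.0 (-0.34, adjusted p 0.758). In the authors' deposited table Cdkn2c was the only one of the 47 genes to pass between quercetin and DMI (log2 fold change -1.23, adjusted p 0.0289), beside 1.51% of its genes, and 0 passed between luteolin and DMI, beside 0.252%.

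**Figure D5:**
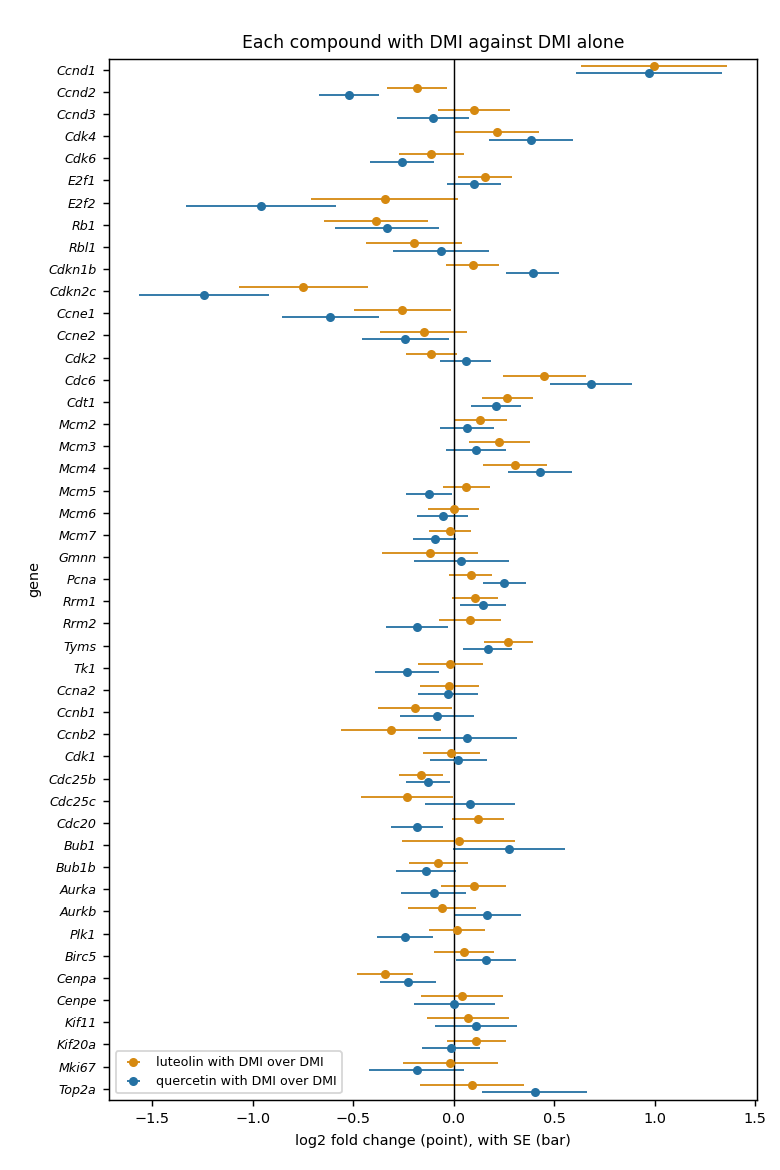
Log2 fold change of each of the 47 genes (rows) in luteolin with DMI over DMI (orange) and quercetin with DMI over DMI (blue), as points with the standard error as bars. Cdkn2c lies at -0.75 and -1.24 and Ccnd1 at 1.00 and 0.97, and most other genes lie within 0.5 of 0.

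These counts of 0 changed without DMI replicate 3. Then 1 of the 47 passed with luteolin (Ccnd1, log2 fold change 1.69, SE 0.25, adjusted p 0.017), against 1.7% of all genes, and 9 with quercetin, against 17.4%. The 9 were Ccnd1, Cdc6, Cdk4, Cdkn1b and Mcm4, higher with quercetin, and Ccnd2, Ccne1, Cdkn2c and E2f2, lower. With replicate 3 left out of all 3 induced groups, 7 of the 47 passed with luteolin against 10.4% of all genes, and 19 with quercetin against 33.4%. The 7 were Ccnd1, Cdc6, Cdk4 and Mcm4, higher with luteolin, and Cdkn2c, Cenpa and Rb1, lower. Cdkn2c was then at -0.85 (SE 0.09) with luteolin and -1.27 (SE 0.09) with quercetin, and Ccnd1 at 1.43 (SE 0.11) and 1.48 (SE 0.11).

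Quercetin and luteolin were also compared with each other, each on top of DMI; the labels do not say that their doses matched. In edgeR 0 of the 47 genes passed, and 0% of all genes. At an unadjusted p under 0.05 there were 3 (Ccnd2, Cdc20 and Cdkn1b), beside 8.93% of all genes, and DESeq2 called 0, beside 0.0202%. Cdkn2c stood at -0.50 with a 95% interval from -1.19 to 0.20, and Ccnd1 at -0.03 with an interval from -0.80 to 0.75. The interval of Ccnd1 reaches about as far up as down, and that of Cdkn2c lies mostly below 0. Narrower intervals were seen for Mcm2 (-0.36 to 0.22), Cdt1 (-0.33 to 0.22) and Pcna (-0.07 to 0.40). With replicate 3 left out of every induced group 9 of the 47 passed, against 13.8% of all genes: Cdk4 and Cdkn1b were higher with quercetin, and Ccnd2, Ccne1, Ccne2, Cdk6, Cdkn2c, Mki67 and Rrm2 lower.

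Against untreated cells, which the DMI comparison also used, luteolin with DMI raised 4 of the 47 genes and lowered 9, and quercetin with DMI raised 0 and lowered 7. Of all genes, 10.5% rose and 8.74% fell with luteolin, and 4.79% rose and 4.66% fell with quercetin. The split moved with the scaling of the libraries in edgeR. For luteolin it was 5 up and 7 down with DESeq2's size factors, beside 19.3% of all genes called in either direction. It was 6 up and 5 down with library totals alone, beside 20.0%. For quercetin it was 1 up and 7 down, and 2 up and 5 down, beside 9.44% and 9.75%. With luteolin, Cdkn2c (1.37, SE 0.33, adjusted p 0.0129), Ccne2 (0.83, adjusted p 0.0219), Rrm2 (0.79, adjusted p 0.0055) and Ccnd3 (0.55, adjusted p 0.0478) rose. Bub1b (-0.69, adjusted p 0.00797), Cdc25b (-0.63, adjusted p 0.00263), Aurkb (-0.59, adjusted p 0.0282), Mcm2 (-0.56, adjusted p 0.0129), Cdt1 (-0.51, adjusted p 0.0145), Cdkn1b (-0.51, adjusted p 0.0193), Cenpa (-0.44, adjusted p 0.0451) and Mcm5 (-0.36, adjusted p 0.0452) fell with it. Ccnb2, a B-type cyclin, read 18.2, 16.8 and 20.1 CPM untreated, 10.5, 11.9 and 16.2 with DMI, 9.55, 8.61 and 13.0 with luteolin, and 12.7, 9.50 and 18.3 with quercetin. Its luteolin libraries lay below the untreated ones without overlap, and it fell with luteolin (log2 fold change -0.82, SE 0.25, adjusted p 0.0345). A copy, Ccnb2-ps, holds 437 counts over the 12 libraries, 15.98% of those of Ccnb2, so the split of reads is uncertain.

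With quercetin the 7 falls were Bub1b (-0.75, adjusted p 0.00901), Mcm2 (-0.63, adjusted p 0.0132), Cdc25b (-0.60, adjusted p 0.00628), Cdt1 (-0.57, adjusted p 0.0155), Kif20a (-0.54, adjusted p 0.036), Mcm5 (-0.54, adjusted p 0.0129) and Plk1 (-0.51, adjusted p 0.0391). Mcm5 read 45.4, 44.4 and 49.8 CPM untreated, 34.3, 33.4 and 36.6 with DMI, 36.0, 35.8 and 37.1 with luteolin, and 33.3, 28.0 and 34.6 with quercetin, with all 9 induced libraries below the untreated ones. Plk1, the Polo kinase of mitosis, read 23.4, 23.6 and 22.9 CPM untreated, 20.4, 20.2 and 17.5 with DMI, 19.7, 22.2 and 16.8 with luteolin, and 18.3, 15.9 and 14.97 with quercetin. Its quercetin libraries were the lowest as a group. Rrm2 (0.53, adjusted p 0.0521), Ccne2 (0.73, adjusted p 0.0566) and Cdkn2c (0.88, adjusted p 0.111) lay above the untreated libraries in all 3 quercetin libraries and did not pass. Leaving out 1 library at a time gave 3 to 21 called genes with luteolin: 5, 4 and 3 without untreated replicate 1, 2 or 3, 4 and 3 without luteolin replicate 1 or 2, and 21 without quercetin replicate 3. With quercetin it gave 1 to 16: 3, 3 and 1 without untreated replicate 1, 2 or 3, 3 without quercetin replicate 2, and 16 without quercetin replicate 3. The share of all genes called ran from 7.76% without luteolin replicate 2 to 29.5% without quercetin replicate 3 with luteolin, and from 3.01% without untreated replicate 1 to 21.6% without quercetin replicate 3 with quercetin. With replicate 3 left out of every induced group, 28 of the 47 passed with luteolin against 44.9% of all genes, and 25 with quercetin against 40.4%. Cdc25b, lower with both compounds, passed in all 20 alternative fits of each comparison. The authors' deposited table had 6 of the 47 genes higher and 16 lower with luteolin, beside 12.6% and 10.9% of its genes, and 2 higher and 5 lower with quercetin, beside 4.28% and 3.38%.

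Another 90 genes of replication and mitosis were read from the same fit, and 89 were tested. DMI raised 4 of them and lowered 19, beside 14.7% and 12.4% of all genes, with a median of -0.30 beside -0.04. The largest differences were Kif23 (-1.25, adjusted p 0.0109), a cytokinesis motor, Chaf1b (-1.20, adjusted p 0.00391), a histone chaperone of replication, Pkmyt1 (1.14, adjusted p 0.0194), a kinase that holds back Cdk1, and E2f8 (-1.09, adjusted p 0.00529), a repressor of the E2F family. Against DMI, 0 of the 89 passed with luteolin and 0 with quercetin in edgeR. At an unadjusted p under 0.05 there were 4 and 14, beside 6.09% and 21.3% of all genes. DESeq2 called 0 with luteolin and 3 with quercetin, beside 0.323% and 6.62% of all genes. Against untreated cells 8 fell with luteolin, beside 8.74% of all genes, led by Kif23 (-1.07), E2f8 (-0.86), Skp2 (-0.84) and Fbxo5 (-0.80). With quercetin 5 fell, beside 4.66% of all genes, led by Espl1 (-0.69), Foxm1 (-0.67), Pole (-0.65) and Ncapd2 (-0.55). In edgeR 0 rose with either, beside 10.5% and 4.79% of all genes, while DESeq2 called 3 higher with luteolin and 0 with quercetin.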

How the data were processed

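RNA of 12 libraries was prepared with a kit that does not mark strand, per the labels' protocols. The authors counted reads per gene with featureCounts 1.5.0-p3, and CASAVA 1.8.2 is also named, per the submitters' processing notes; for the aligner and the strand setting of the counting, the sources used here give nothing. The deposited count table holds whole-number counts per gene, and the authors also deposited FPKM values, used here only to compare levels between genes, and their own log2 fold changes with p-values. The notes name mm9, but 98.1% of the table's gene positions, and those of 45 of the 47 genes, equal GRCm38.

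The counts were filtered (filterByExpr), scaled by TMM and fitted in edgeR 4.0.16 (R 4.3.3) with 1 term per group over all 12 libraries. The quasi-likelihood test gave 6 comparisons, with Benjamini-Hochberg adjustment over 14855 genes and a threshold of 0.05. CPM values use the TMM-scaled library totals. Intervals are 95% intervals of the fitted log2 fold change. Scripts were tested on simulated data. The lists and the 47 genes were chosen with earlier results of these data known. Genes with values in every library were named by rule: of genes past the threshold without overlap between groups, the 16 with the largest change with DMI and up to 8 of each other comparison, and, whether or not they passed, the most abundant per length in each role. Mki67, Cdc6, Ccnd2 and Cenpa were added outside that rule, the last 3 after their values were seen. Deviations of same-numbered libraries from their group means were positively correlated in every pair for luteolin against DMI (r 0.26, 0.34 and 0.59), which met the limit of 0.1, so the numbers were taken to pair those libraries. No label says why. A gene's deviations cancel out within a group, so these correlations are not separate, and a shift shared by 1 pair alone would raise all of them. Alternatives were DESeq2 1.42.0, other scalings and filters, a replicate block, the 6 libraries of a pair alone, and leaving out libraries.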

Additional observations from a re-analysis of the deposited data

How the results depend on the processing

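Of 1920 alternative values for 96 single-gene results, 1577 kept their direction and their side of the threshold, 189 lost the call, 120 gained it and 34, over 11 results, changed sign. Of the 34, 0 passed the threshold. With DMI against untreated, leaving out 1 library gave -0.059 to 0.131 for Ccnb1, -0.122 to 0.0085 for Cdk1, -0.133 to 0.057 for Cdc20, -0.076 to 0.038 for Rrm1, -0.043 to 0.159 for Aurka, -0.011 to 0.320 for Rbl1 and -0.025 to 0.275 for Gmnn. Between the compounds it gave -0.237 to 0.255 for Ccnd1, -0.105 to 0.040 for Cdt1 and -0.118 to 0.026 for Mcm2. DESeq2's size factors gave 0.0066 for Cdc20 and 0.0085 for Rrm1 with DMI, no filter gave 0.016 and 0.018, a minimum of 1 CPM in 3 libraries 0.016 and 0.018, DESeq2 0.0064 and 0.0085, and the 6 libraries of the pair 0.023 and 0.025, with 0.00064 for Cdk1. With replicate 3 left out of every induced group the values were 0.097 for Cdc20, 0.029 for Rrm1, 0.036 for Cdk1 and 0.023 for Cenpa with DMI, and 0.044 for Ccnd1 and 0.035 for Mcm2 between the compounds. The number of the 47 genes called moved more. Without any filter on low counts it was 2 for luteolin and 3 for quercetin, each against DMI, beside 1.25% and 5.98% of all genes. DESeq2 called 2 for quercetin against DMI and 12 for quercetin against untreated, beside 6.62% and 14.6% of all genes. With only the 6 libraries of the pair, luteolin against untreated gave 25, beside 42.0% of all genes. The main fit gave 13, beside 19.3%. Leaving out 1 library gave 8 to 26 for DMI against untreated, 0 to 1 and 0 to 9 for luteolin and quercetin against DMI, 3 to 21 for luteolin against untreated and 1 to 16 for quercetin against untreated. In the same order, the shares of all genes ran from 12.3% to 36.6%, 0% to 1.7%, 0% to 17.4%, 7.76% to 29.5% and 3.01% to 21.6%. With replicate 3 left out of every induced group, an alternative chosen after seeing the data, the counts were 33 for DMI, 28 for luteolin and 25 for quercetin against untreated, 7 and 19 for luteolin and quercetin against DMI, and 9 between the compounds. The shares of all genes were 52.8%, 44.9%, 40.4%, 10.4%, 33.4% and 13.8%, in the same order. The cause was not tested.

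With the replicate number as a block, 5 of the 47 passed for quercetin against DMI, beside 9.39% of all genes. Against untreated it was 23 for DMI, 17 for luteolin and 10 for quercetin, beside 31.4%, 25.1% and 14.2% of all genes. Without the block those shares were 27.1%, 19.3% and 9.45%. In the other comparisons 0 of the 47 passed. Over all genes the block gave 25 for luteolin and 1395 for quercetin against DMI, 14 between the compounds and 2115 for quercetin against untreated. Outside luteolin against DMI the limit of 0.1 was not met in every pair, so pairing there is uncertain. For quercetin against DMI the correlations of same-numbered libraries were 0.07, 0.28 and 0.33, with replicates 2 and 3 above the limit.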

Other observations

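The 5 genes whose log2 CPM followed Mki67 most closely over the 12 libraries lay outside the 47. Cnot1, a scaffold of the complex that removes poly(A) tails, had a Pearson r of 0.976 with Mki67, Smg1, a kinase of nonsense-mediated decay, 0.975, Zfp871 0.970, Vps13b 0.968 and Arhgef12 0.964. Of the other 46 genes described above, Cenpe came nearest at 0.794 and Bub1 followed at 0.739. The 12 points share 4 groups and include quercetin replicates 2 and 3, in which long genes were low and high. In those libraries Cnot1 read 201 and 349.6 CPM, beside 33.4 and 84.1 CPM for Mki67. The part of gene length in these correlations was not tested.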
